A study of Mus musculus with 12 samples.

Results

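The genes described here are 9 receptors and effectors of the Hedgehog pathway, namely Gas1, Boc, Cdon, Ptch1, Smo, Hhip, Gli1, Gli2 and Gli3, out of 50600 genes counted in each library. They were listed by symbol and found in every library. The set was chosen on measured values, since the difference of these genes between mTEC hi and mTEC lo was already known, so that difference is given as a description with no test. RNA-seq of polyadenylated RNA was made from medullary thymic epithelial cells (mTECs), the stromal cells of the thymic medulla, of mice aged 6 to 8 weeks. Cells labelled MHCII hi (here mTEC hi) and MHCII lo (mTEC lo) gave 6 libraries each; the level of MHC class II on the surface is used to separate more from less mature mTECs. The strain labels were B6.B6CB-Psmb11tm1Smta (Psmb11-/-) and B6.B6CB-Psmb11tm1Smta (Psmb11+/+). Psmb11 encodes a catalytic proteasome subunit known from cortical, rather than medullary, thymic epithelium. In 8 libraries the title, source name and strain gave 1 genotype, with 2 Psmb11-deficient and 2 wild-type (WT) libraries in each cell type. In the other 4 libraries the genotype in the title was the opposite of that in the source name and strain. These were number 1 titled WT and number 3 titled KO in both cell types. They entered the comparison of cell types, and entered the genotype comparison only in alternatives. Whether each library came from its own mice is not in the labels, so the p-values cover library-to-library spread and that spread may be technical.

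Gene totals were 38791960 to 86793594 reads per library. Reads that fell outside genes were 14.2 to 17.2% of reads in mTEC hi and 8.26 to 12.1% in mTEC lo. Psmb11 was at 0.847 and 1.30 CPM (read counts scaled to a common library total) in the undisputed deficient mTEC hi libraries against 10.3 and 7.54 in WT, and at 1.63 and 1.17 against 12.2 and 7.51 in mTEC lo. In the libraries with conflicting labels Psmb11 was at 8.16 and 7.10 CPM in those titled WT, and at 1.12 and 1.26 in those titled KO. The mTEC label was checked with 7 markers, led by the keratins Krt5 and Krt8, whose summed level was 3468 to 4019 CPM in mTEC hi and 8446 to 10230 in mTEC lo. Of these, 4 had the higher mean in mTEC lo, while Foxn1 (215 ± 5.70 against 105 ± 9.63 CPM), Cldn3 and Cldn4 were higher in mTEC hi. H2-Aa, a chain of MHC class II itself, was at 5451 ± 182 CPM in mTEC hi and 2119 ± 155 in mTEC lo (SD, n = 6 each).

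Hedgehog proteins are secreted ligands. Gas1, Boc and Cdon are co-receptors that help the ligand bind Ptch1, which in the absence of ligand holds back the membrane protein Smo. Active Smo, working in the primary cilium, changes the Gli transcription factors: Gli2 is the main activator, Gli3 acts largely as a repressor when the pathway is off, and Gli1 is itself a target gene. Ptch1 and Hhip, a cell-surface protein that binds and sequesters ligand, are also target genes in many tissues. In the thymus the pathway is best known for effects on developing T cells.

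The genes lie on 7 chromosomes of the mouse genome GRCm38, all as protein-coding genes in the GENCODE annotation: Gas1 (chr13:60174405-60177365, minus strand), Boc (chr16:44485049-44558897, minus), Cdon (chr9:35421128-35507652, plus), Ptch1 (chr13:63508328-63573598, minus), Smo (chr6:29735503-29761365, plus), Hhip (chr8:79965851-80058006, minus), Gli1 (chr10:127329882-127341974, minus), Gli2 (chr1:118834132-119053619, minus) and Gli3 (chr13:15463235-15730026, plus). Reads were counted without regard to strand. Gli1 overlaps Arhgap9, on the opposite strand, which held 92 to 354 reads per library, and the antisense gene Gm47200, with 0 to 3 reads. Gli3 overlaps Gm6556, with 9 to 139 reads, and Smo holds the pseudogene Gm13717, with 4 to 61 reads, so a small part of their reads could not be assigned with certainty. Gas1 overlaps Gm48488 (chr13:60176682-60182862), a noncoding RNA gene on the opposite strand that had no count of its own. Reads from the bases they share cannot be told apart in these counts.

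Promoters, taken as the 250 bases before the RefSeq start (GRCm38.p6), were found for 7 of the 9 genes. Those of Gas1 and Smo, which were lower in mTEC hi, and of Hhip, whose groups overlapped, are printed 5′ to 3′ on the gene's strand, with each CACCC and its reverse complement GGGTG in capitals. CACCC is the core of the Gli site GACCACCCA.
Gas1 (chr13:60177536-60177785, minus): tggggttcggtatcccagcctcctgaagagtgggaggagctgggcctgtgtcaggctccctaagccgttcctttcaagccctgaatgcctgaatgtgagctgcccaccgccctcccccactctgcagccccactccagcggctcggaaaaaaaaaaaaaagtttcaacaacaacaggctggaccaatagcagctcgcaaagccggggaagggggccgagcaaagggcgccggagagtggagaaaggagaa
Smo (chr6:29735247-29735496, plus): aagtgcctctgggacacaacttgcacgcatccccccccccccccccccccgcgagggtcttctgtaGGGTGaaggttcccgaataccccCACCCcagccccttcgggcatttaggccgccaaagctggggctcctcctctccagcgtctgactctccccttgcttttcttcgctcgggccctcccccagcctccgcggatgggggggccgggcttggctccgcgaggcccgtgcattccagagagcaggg
Hhip (chr8:80058009-80058258, minus): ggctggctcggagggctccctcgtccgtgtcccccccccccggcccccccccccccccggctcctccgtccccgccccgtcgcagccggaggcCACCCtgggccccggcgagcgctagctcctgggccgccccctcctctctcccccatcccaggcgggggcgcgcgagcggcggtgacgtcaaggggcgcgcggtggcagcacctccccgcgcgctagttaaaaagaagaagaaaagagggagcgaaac
GACCACCCA, searched on both strands, was in 0 of the 7 promoters and in 74 of 32851 promoters (0.225%) in all. CACCC on either strand was in 4 of 7, namely Smo, Hhip, Gli2 and Gli3, against 52.0% of all promoters. The printed sequences show 0 such cores for Gas1, 2 for Smo and 1 for Hhip. GC content was 58.8% for Gas1, 68.4% for Smo and 76.0% for Hhip, against a median of 52.4% over all promoters. A match in these letters is a description only, and searching 250 bases says nothing of sites elsewhere. The 250 bases taken for Cdon, Ptch1 and Gli3 lay inside the gene spans given above, downstream of the outermost start.

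Comparing mTEC hi with mTEC lo, the co-receptors Gas1 and Boc stood furthest apart. Gas1, a membrane-anchored protein first known for growth arrest, was at 15.1 to 20.8 CPM in mTEC hi (median 15.3) and at 565 to 757 in mTEC lo (median 642), 40.1-fold lower in mTEC hi (log2 fold change -5.33, SE 0.08). The lowest mTEC lo library was 27.2 times the highest mTEC hi library. Boc, an immunoglobulin-superfamily co-receptor, was at 23.3 to 25.2 CPM (median 24.4) in mTEC hi and 531 to 611 (median 558) in mTEC lo, 23.1-fold lower (-4.53, SE 0.05). Its groups were likewise apart, with the lowest mTEC lo library 21.0 times the highest mTEC hi library. Cdon, a relative of Boc, was at 14.2 to 18.7 CPM (median 17.6) against 33.2 to 42.3 (median 38.2), 2.23-fold lower (-1.16, SE 0.05). The 3 co-receptors therefore differed by unlike amounts, although every mTEC lo library was above every mTEC hi library for each of them. In bulk RNA, fewer cells with a transcript and less of it per cell cannot be told apart.

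The receptor and the transducer were lower in mTEC hi as well. Ptch1 was at 26.1 to 32.0 CPM (median 30.4) in mTEC hi and 53.4 to 63.0 (median 55.8) in mTEC lo, 1.91-fold lower (-0.93, SE 0.05). Smo was at 26.5 to 32.1 CPM (median 27.6) against 118 to 145 (median 127), 4.51-fold lower (-2.17, SE 0.06). Neither gene's groups overlapped. Hhip, which binds ligand away from Ptch1, was at 165 to 196 CPM (median 179) in mTEC hi and 148 to 187 (median 171) in mTEC lo, with a log2 fold change of 0.10 (95% confidence interval -0.03 to 0.23). Its libraries overlapped. The difference was positive in all 21 alternatives, from 0.05 to 0.39. It passed the threshold only in some of them, which is a description and no test, since this contrast chose the gene.

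Among the transcription factors, Gli3 was at 18.5 to 20.4 CPM (median 19.8) in mTEC hi and 66.2 to 75.8 (median 69.0) in mTEC lo, 3.55-fold lower (-1.83, SE 0.04). Gli2 was at 5.42 to 7.31 CPM (median 6.21) against 10.02 to 13.4 (median 11.03), 1.82-fold lower (-0.86, SE 0.09). Both genes had groups that did not overlap. Gli1 was scarcely detected, with 33 to 85 reads per library in mTEC hi and 36 to 67 in mTEC lo, and its CPM of 0.701 to 1.01 and 0.622 to 1.16 overlapped (-0.06, 95% interval -0.51 to 0.40). At this depth a difference of Gli1 within that interval remained compatible with the data, and over the alternatives its value ran from -0.31 to 0.23.

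**Figure D1:**
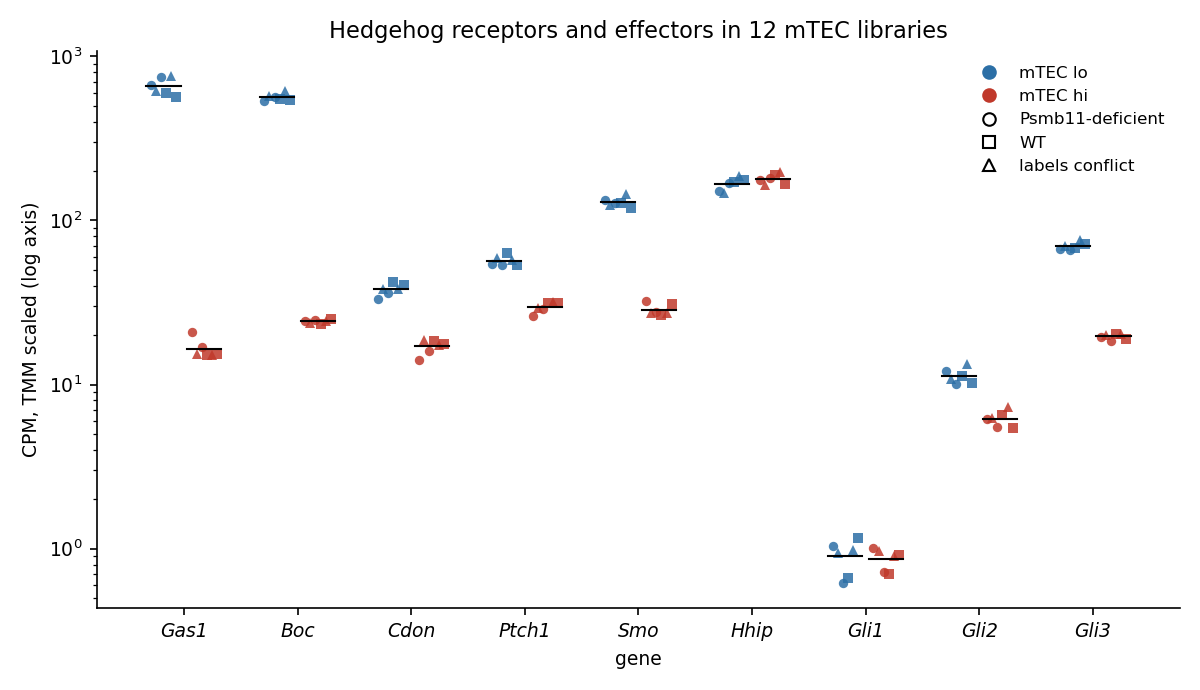
CPM of the 9 genes in 12 libraries on a log axis, with mTEC lo in blue, mTEC hi in red, a bar at the mean of 6 libraries and the marker shape giving the genotype labels. The blue and red points are apart for 7 genes and overlap for Hhip and Gli1, and the span is largest for Gas1 and Boc.

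Thus 7 of 9 genes were lower in mTEC hi with groups that did not overlap, as were 30.3% of the 23923 genes tested. This contrast chose the 9 genes, so nothing is read from the count. By edgeR's quasi-likelihood test with Benjamini-Hochberg adjustment, 38.0% of all genes were called lower in mTEC hi at an adjusted p below 0.05, 44.2% higher and 82.1% in either direction. With libraries scaled by their size alone, 67.0% of the called genes were higher in place of 53.8%. The median log2 fold change was -1.16 over the 9 genes and 0.08 over all genes. Within the undisputed WT and Psmb11-deficient libraries taken alone the log2 fold change was -5.28 and -5.24 for Gas1, -4.52 and -4.49 for Boc, -2.13 and -2.13 for Smo and -1.86 and -1.82 for Gli3.

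Set on 1 scale, TPM (the deposited transcript share, which takes length into account), Hhip had the highest level of the 9 in mTEC hi and Gas1 in mTEC lo. In mTEC hi the order was Hhip (48.1 ± 2.19 TPM), Smo (13.4 ± 1.07), Gas1 (9.27 ± 1.17), Boc (8.35 ± 0.37), Ptch1 (7.16 ± 0.87), Gli3 (4.13 ± 0.28), Cdon (4.12 ± 0.72), Gli2 (1.54 ± 0.25) and Gli1 (0.440 ± 0.178, SD, n = 6 throughout). Gas1 and Boc, Boc and Ptch1, and Gli3 and Cdon had overlapping ranges, and the other neighbours did not. In mTEC lo it was Gas1 (302 ± 23.7), Boc (154 ± 7.24), Smo (48.3 ± 2.27), Hhip (37.2 ± 2.52), Gli3 (12.04 ± 1.15), Ptch1 (10.7 ± 1.31), Cdon (7.24 ± 0.86), Gli2 (2.36 ± 0.36) and Gli1 (0.432 ± 0.260), with only Gli3 and Ptch1 overlapping. Gas1 in mTEC lo had a level above 99.3% of all genes and Boc above 98.4%. Gli1 TPM rests on effective lengths that ranged from 1693 to 3906 bases between libraries. On this scale the TPM of Hhip was 45.6 to 51.0 in mTEC hi and 34.8 to 40.6 in mTEC lo, groups that did not overlap, unlike its CPM.

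Ratios within a library do not depend on how libraries are scaled. The TPM of Gas1 was 0.972 to 1.41 times that of Boc in mTEC hi and 1.76 to 2.15 times in mTEC lo. Cdon made up 14.3 to 22.7% of the summed TPM of the 3 co-receptors in mTEC hi and 1.30 to 1.89% in mTEC lo, and the sum was 20.7 to 23.0 TPM and 428 to 501 TPM respectively. Boc made up 35.6 to 40.4% and 31.3 to 35.7%, and Gas1 38.9 to 50.1% and 62.6 to 67.3%. The TPM of Smo was 1.64 to 2.55 times that of Ptch1 in mTEC hi and 3.78 to 5.32 times in mTEC lo. For Hhip against Ptch1 the order was the reverse, 5.78 to 8.33 times in mTEC hi and 2.90 to 4.19 times in mTEC lo. Gli3 was 2.18 to 3.12 times Gli2 in mTEC hi and 4.08 to 6.49 times in mTEC lo. In each of these last 3 ratios, and in that of Gas1 to Boc, the cell types did not overlap. The genes were chosen on this contrast and other gene pairs were not counted, so nothing is read from that separation.

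**Figure D2:**
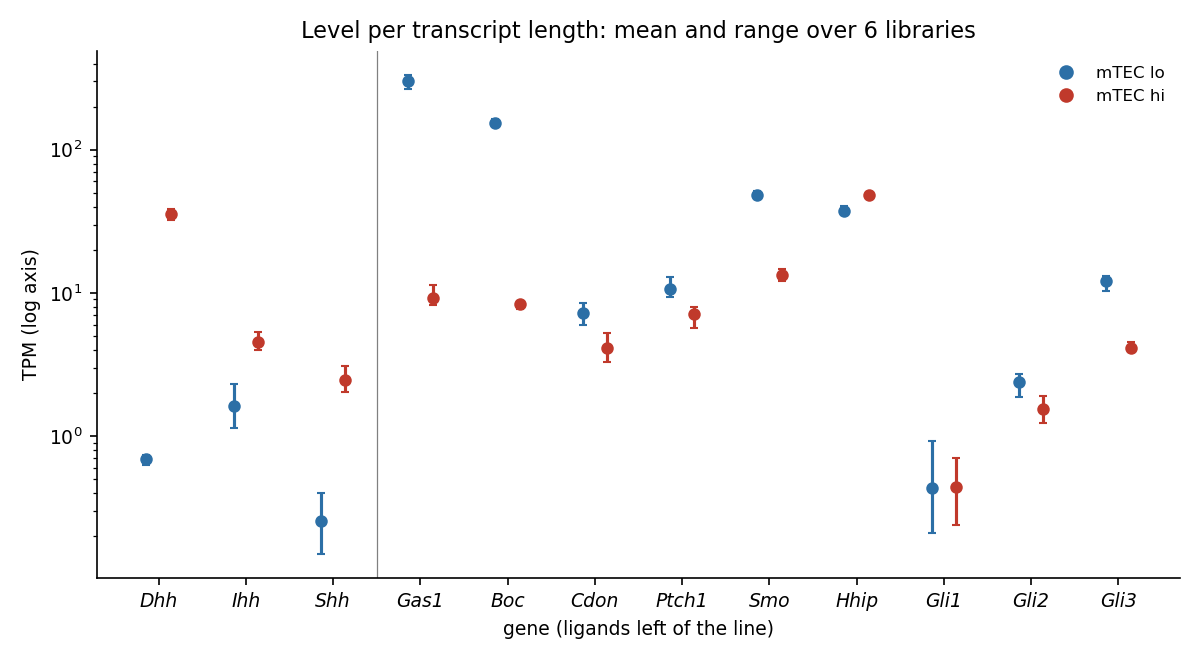
TPM on a log axis, as the mean and range over 6 libraries, for the 3 ligands (left of the line) and the 9 receptors and effectors. Dhh, Ihh and Shh are higher in mTEC hi (red), with the range of Dhh at 32.3 to 38.4 TPM against 0.630 to 0.740 in mTEC lo (blue), and Gas1 and Boc stand the other way.

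The ligands had levels in the opposite order. They are on a list that was drawn up with earlier results of these data known, as were the other lists, so their direction is not independent evidence. Dhh, the desert hedgehog ligand, was at 52.0 to 61.7 CPM (median 56.1) in mTEC hi and 1.01 to 1.73 (median 1.49) in mTEC lo, a log2 fold change of 5.32 (SE 0.10, edgeR adjusted p = 1.558e-17 over all genes). Shh (sonic hedgehog) was at 1.91 to 2.99 CPM against 0.138 to 0.464, the latter from 8 to 27 reads a library, and Ihh (Indian hedgehog) at 4.81 to 6.74 against 1.83 to 3.47 (1.12, SE 0.16). The ranges of Dhh and Ihh did not overlap between the cell types. How many of all genes were apart in this direction was not counted, so nothing is read from it. Shh passed the filter on low counts through mTEC hi, so its ranges are not compared. By TPM, Dhh was 6.46 to 8.96 times Ihh in mTEC hi and 0.275 to 0.628 times Ihh in mTEC lo, so the order of these ligands differed between the cell types.

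Of the list of 9 ligands and release genes, 7 were called higher and 2 lower in mTEC hi, where 44.2% of all genes were called higher and 38.0% lower, with a median of 2.87 against 0.08 over all genes. Shh and Scube2 had under 10 reads in a mTEC lo library and passed the filter on low counts through mTEC hi, so no p or fold is given for them. Without this pair 5 were higher and 2 lower (median 1.12). Scube2, a secreted protein that helps release the lipid-modified ligand, was at 2.68 ± 0.48 CPM against 0.108 ± 0.067 (SD, n = 6 each), the latter from 2 to 11 reads a library. The 2 lower genes, chosen for mention after their values were seen, were Disp1 (-1.50), which exports ligand from the producing cell, and Disp2 (-0.58). Among 11 other receptors and membrane regulators, 4 were called higher and 7 lower (median -0.36), against the same 44.2% and 38.0% of all genes. Lrp2, an endocytic receptor that binds Shh, was at 16.3 ± 1.53 CPM against 0.560 ± 0.233 (4.88, SE 0.18).

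Of 19 genes that regulate Gli proteins inside the cell, 4 were called higher and 13 lower in mTEC hi (median -0.45), where 44.2% and 38.0% of all genes were. With library size alone the counts were 6 and 10, where 12907 and 6347 of all 23923 genes were called. Of the 19, 2 had under 10 reads in a mTEC lo library, and without them 2 were higher and 13 lower (median -0.52). Kif7, a ciliary kinesin that acts on Gli proteins, was at 2.34 ± 0.29 CPM against 9.03 ± 0.66 (-1.94, SE 0.10). Tulp3, a ciliary transport adaptor, was at 58.6 ± 1.37 against 169 ± 10.4 (-1.53, SE 0.05). Of 18 primary cilium transport genes, 4 were called higher and 11 lower (median -0.25), against 44.2% and 38.0% of all genes. The largest differences among the named were those of Tctn1 of the transition zone at 11.1 ± 0.68 against 21.7 ± 2.57 CPM (-0.97, SE 0.07) and Arl13b, a ciliary membrane GTPase, at 28.6 ± 2.71 against 54.3 ± 2.46 (-0.93, SE 0.06). With libraries scaled by their size alone, 7 of the 18 were higher and 8 lower, against 12907 and 6347 of all 23923 genes. On TPM the Tctn1 means were 10.9 and 11.6, far closer than on CPM.

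Of 20 genes reported as Hedgehog targets elsewhere, 14 were called higher and 6 lower (median 2.33, against 0.08 over all genes), where 44.2% of all genes were higher and 38.0% lower. Of the 20, 5 had under 10 reads in a mTEC lo library and passed the filter on low counts through mTEC hi, namely Foxl1, Foxc2, Foxd1, Nkx6-1 and Hsd11b2. Without them 9 were higher and 6 lower (median 1.40). The pair that the rule named were among these 5, so only their levels are given. Foxc2, a forkhead transcription factor, was at 2.25 ± 0.49 against 0.0600 ± 0.0409 CPM (0 to 5 reads in a mTEC lo library), and Hsd11b2, a cortisol-inactivating enzyme, at 10.8 ± 0.93 against 0.363 ± 0.204 (2 to 33 reads). Gli1, Ptch1 and Hhip, the targets most often used as readouts, are among the 9 members and not on the list. Of these Ptch1 was lower in mTEC hi, and the groups of Gli1 and Hhip overlapped. The adjusted p over all genes (edgeR) was 3.991e-06 for Ihh and at most 9.407e-10 for Lrp2, Kif7, Tulp3, Tctn1 and Arl13b. All except Ihh were named for their large change in this same contrast, and every list was drawn up with earlier results known. These p-values, and that of Dhh, are therefore a description and not an independent test.

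**Figure D3:**
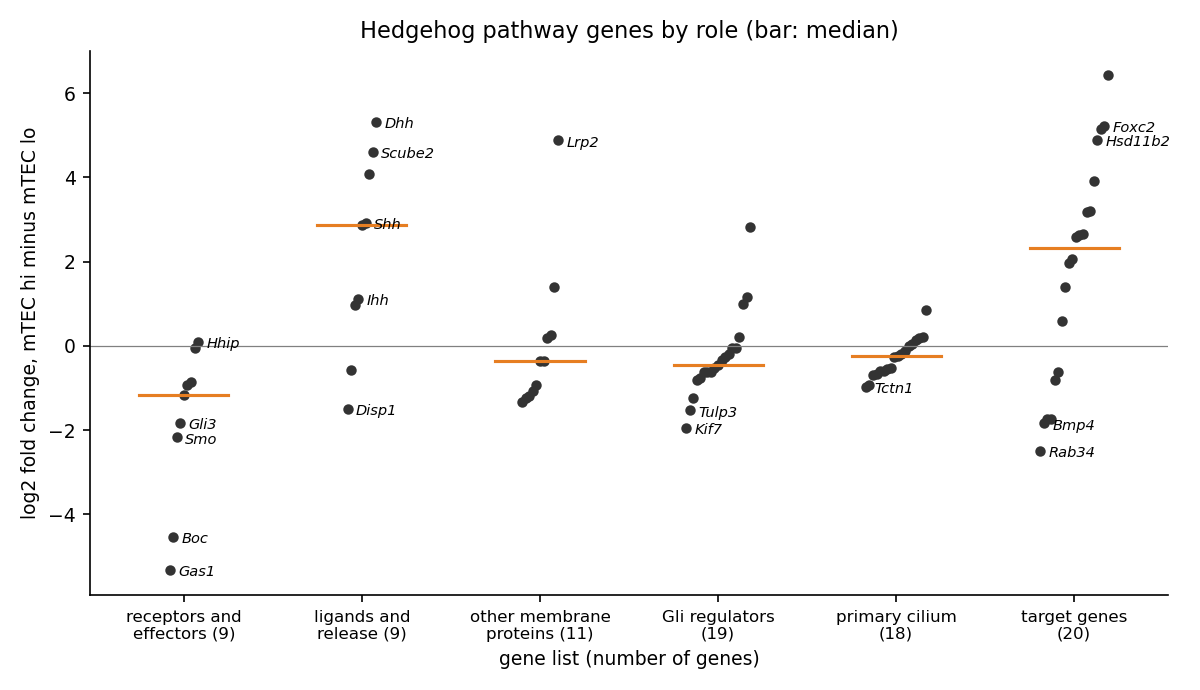
Log2 fold change, mTEC hi minus mTEC lo, for the 9 receptors and effectors and 5 lists of pathway genes, 1 point per gene with a bar at the median and the number of genes in parentheses. The medians of the ligands (2.87) and of the target genes (2.33) are above 0 and those of the other lists are below it. The points include the genes with under 10 reads in a mTEC lo library. Labelled genes outside the named rule were picked after their values were seen.

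Markers of cell states and of several other cell types, though not of all, moved with the same contrast. The summed CPM of 5 mature mTEC markers, led by H2-Aa and Aire, was 8022 to 8408 in mTEC hi and 2171 to 2502 in mTEC lo, and of 5 immature mTEC markers, led by Krt17 and Ccl21a, 2075 to 2457 and 7133 to 8740. Of 11 fibroblast markers 7 were higher in mTEC lo, led by Fbn1 (52.6 ± 1.06 against 243 ± 19.7 CPM) and Dcn (39.8 ± 3.46 against 182 ± 22.1), and the sum was 213 to 241 in mTEC hi against 499 to 660 in mTEC lo. The collagen genes Col1a1 (79.4 ± 7.21 against 7.88 ± 1.98) and Col1a2 (15.4 ± 1.94 against 4.93 ± 1.41) were instead higher in mTEC hi. All 4 tuft cell markers were higher in mTEC lo, with a sum of 240 to 354 against 1148 to 1755. Of the 6 pericyte and smooth muscle markers, led by Rgs5 and Acta2, 3 were higher in mTEC lo, the sum being 1075 to 1139 against 1567 to 2014. Acta2 was at 55.5 ± 4.25 against 731 ± 101 CPM, while Rgs5 was at 649 ± 22.7 against 662 ± 52.8. Pdgfrb (57.4 ± 2.17 against 5.10 ± 0.71), Cspg4 (18.3 ± 2.17 against 2.80 ± 0.52) and Myh11 had instead the higher mean in mTEC hi. No marker of any list had 0 reads in all libraries of a cell type. The 7 cortical epithelial (cTEC) markers, led by Tbata and Ccl25, summed to 1112 to 1228 CPM in mTEC hi and 448 to 574 in mTEC lo. Of these 7, however, 3 had the higher mean in mTEC lo, namely Prss16, Ackr4 and Cxcl12. The 5 ciliated cell markers summed to 113 to 130 and 72.6 to 85.1, with 1 of them, Dnah5, higher in mTEC lo. B cell markers summed to 26.3 to 30.6 CPM in mTEC hi and 0.563 to 2.19 in mTEC lo, and dendritic cell and macrophage markers to 55.8 to 68.1 and 3.45 to 7.84. The sums overlapped for endothelial (41.3 to 64.0 in mTEC hi, 43.7 to 69.7 in mTEC lo), mesothelial (197 to 241, 150 to 213) and thymocyte markers (64.7 to 158.5, 31.05 to 79.0). The thymocyte sum of 158.5 was that of the Psmb11-deficient mTEC hi library number 1. The part of these cells in the differences of Gas1, Boc and the rest was not tested.

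**Figure D4:**
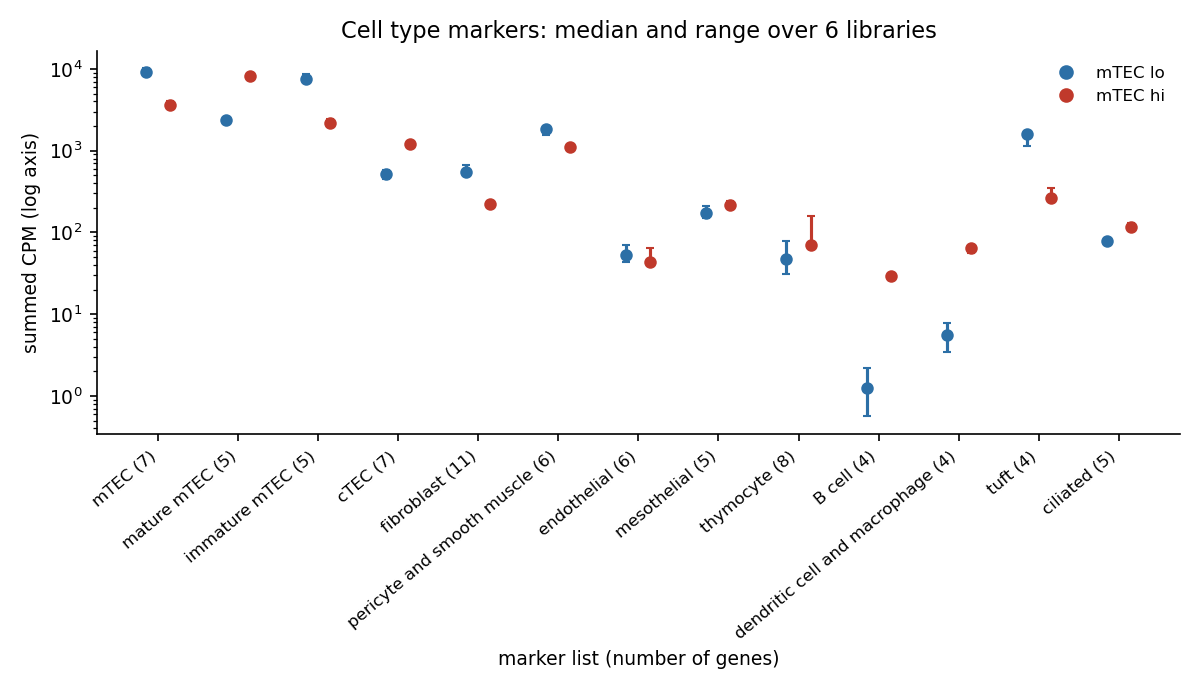
Summed CPM of each marker list on a log axis, as the median and range over 6 libraries in mTEC lo (blue) and mTEC hi (red). The mature and immature mTEC lists are reversed between the cell types, and the fibroblast and tuft lists are higher in mTEC lo.

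Genes with a pattern like that of Gas1 over the 12 libraries were named by Pearson correlation of log2 CPM among 11255 genes of at least 10 CPM, as a description. They were Ifngr1 (r = 0.9996), Bcam, Pxdc1, C1ra and Yap1. For Boc they were Col6a1 (r = 0.9998), Wfikkn2, Lifr, Col6a2 and Ltbp3. All 12 libraries share the split between cell types, and 1051 genes for Gas1 and 1168 for Boc had r above 0.99, so these names stand for a large group. By rank correlation 0 of the 5 named for Gas1 and 1 of the 5 for Boc came back, and within the 6 mTEC lo libraries 0 and 0.

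The genotype comparison asked whether loss of Psmb11 changed the same genes. In mTEC hi 0 of 9 were called by edgeR, where 0.00375% of 26642 genes were (1 gene, Psmb11 itself). In mTEC lo 0 of 9 were called, where 0.0150% of genes were (4 genes, Psmb11 among them). DESeq2 called 0 of 9 in each as well. With 2 libraries against 2 this is a small design. In the mTEC hi libraries, Gas1 was at 20.8 and 16.9 CPM in the deficient libraries and 15.1 and 15.4 in WT, above both WT libraries, with a log2 difference of 0.32 (95% interval 0.07 to 0.56, edgeR adjusted p = 1). Without the deficient library at 20.8 CPM the difference was 0.16. In mTEC lo it was at 666 and 747 against 597 and 565, again above both, with 0.28 (0.05 to 0.50, adjusted p = 0.352). Cdon was at 14.2 and 16.0 CPM against 18.5 and 17.8 in mTEC hi (-0.26, interval -0.49 to -0.03, adjusted p = 1) and 33.2 and 36.0 against 42.3 and 40.6 in mTEC lo (-0.27, -0.49 to -0.05, adjusted p = 0.355). These were the 2 members in each cell type with an unadjusted p below 0.05, as 3.45% of all genes had in mTEC hi and 11.3% in mTEC lo, and neither passed the correction over all genes. Without 1 deficient library the value of Cdon ran from -0.35 to -0.17 in mTEC hi, the latter without number 1, and that of Gas1 in mTEC lo from 0.19 to 0.36. Ptch1 was also below both WT libraries in mTEC hi (26.1 and 28.8 against 31.3 and 31.4 CPM, -0.19), as were Hhip (151 and 170.0 against 172 and 175, -0.12) and Gli3 (66.9 and 66.2 against 67.9 and 71.6, -0.08) in mTEC lo. Groups of this size are often apart. In mTEC hi both deficient libraries were above both WT libraries for 18.5% of all genes and below for 17.7%, and in mTEC lo for 18.6% and 17.7%. For the other members the groups overlapped, and the interval was widest for Gli1, at -0.84 to 1.08 in mTEC hi.

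**Figure D5:**
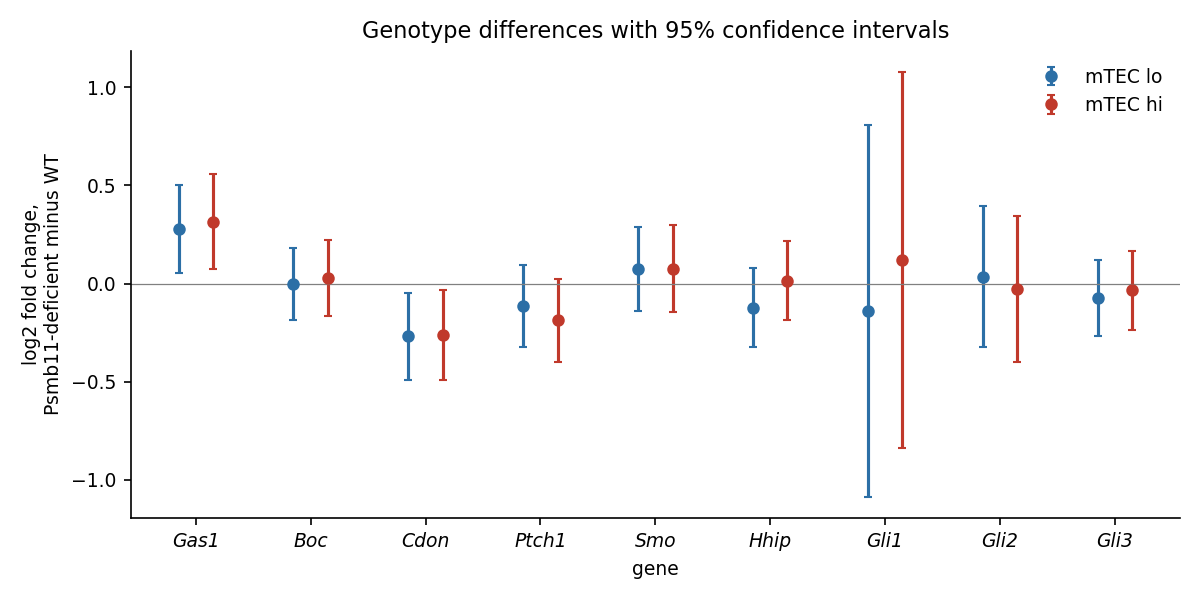
Log2 fold change, Psmb11-deficient minus WT, with 95% confidence intervals for the 9 genes in mTEC lo (blue) and mTEC hi (red), from 2 against 2 undisputed libraries in each. Gas1 lies above 0 and Cdon below 0 in both cell types, and none of the 9 was called after correction.

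The values of the libraries with conflicting labels bear on these 2 genes. Gas1 in mTEC lo was at 617 CPM in the library titled WT and 757 in that titled KO, and in mTEC hi at 15.3 and 15.1. Cdon was at 38.0 and 38.3 CPM in mTEC lo and at 18.7 and 17.4 in mTEC hi. With genotype taken from the title, 3 against 3, Gas1 differed by 0.29 in mTEC lo (adjusted p = 0.182, groups apart) and 0.20 in mTEC hi (groups overlapping), and Cdon by -0.17 (overlapping) and -0.21 (apart). With it taken from the source name the values in mTEC lo and mTEC hi were 0.09 and 0.22 for Gas1 and -0.18 and -0.14 for Cdon. Psmb11 itself differed by -3.001 and -2.72 in mTEC hi and mTEC lo by title, and by -0.86 and -1.10 by source name, neither of the latter being called. In their Psmb11 levels, given above, the libraries with conflicting labels lay near the undisputed libraries of the genotype in their title. Leaving aside which labels hold, the lowest adjusted p of any of the 9 genes over all alternatives was 0.478 in mTEC hi and 0.115 in mTEC lo.

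The difference of the genotype effect between the cell types, tested as an interaction, was called for 0 of 9 members and for 0% of 26642 genes by edgeR, where 1174 genes had an unadjusted p below 0.05 and DESeq2 called 3 higher and 1 lower. Member values ran from -0.07 for Ptch1 to 0.26 for Gli1. For Gas1 the interaction was 0.04 (95% interval -0.29 to 0.37) and for Cdon 0.01 (-0.31 to 0.33), so a difference within those bounds remained compatible with the data. No gene of the 5 pathway lists was called between genotypes or in the interaction.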

How the data were processed

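The authors deposited, for each of 12 libraries, a table of read counts per gene, with a column ignoring strand and a column for each strand, and an RSEM table with expected counts, TPM and effective length. Per the submitters' processing notes, CASAVA 1.8.2, STAR 2.5.1b and RSEM 1.2.28 were used, with GRCh38 named as the build, although the gene identifiers are mouse. Their roles and the annotation are not given in the sources used here. Of 50600 identifiers 50376 matched a mouse symbol in GENCODE (GRCm38). Rows naming no gene held 21.5 to 27.8% of all reads and were left out. Expected counts, deposited by the authors, summed to 0.507 to 0.535 of the read counts. The columns for the 2 strands held 50.4 to 50.8% and the rest, so counts ignoring strand were used.

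Counts were tested with edgeR 4.0.16 in R 4.3.3 (quasi-likelihood, TMM, at least 10 reads by its filter, Benjamini-Hochberg over all genes tested, threshold 0.05). The cell type model held all 12 libraries and a covariate for the genotype class, and genotypes in a model of 4 groups over 8 libraries. CPM is TMM-scaled. Alternatives used DESeq2 1.42.0, rounded expected counts, other scalings, no filter, a minimum change of 1.5-fold, blocks and each library left out. The procedure was tested on simulated data.

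The genes and lists were chosen with earlier results of these data known. The rule for named genes gave all 9 members, Shh, Ihh and Dhh, the 2 called genes of largest change per list with at least 1 CPM, the 5 genes most like Gas1 and Boc, the 2 most abundant genes of a marker list, and Psmb11. A further gene that the rule names is not reported here.

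Replicate numbers come from the titles. Deviations of the 6 pairs of matching titles correlated at r = 0.009 to 0.117, above 0.1 in 2, so the numbers were not treated as pairing libraries.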

Additional observations from a re-analysis of the deposited data

Results flagged for a closer look

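Gas1 in mTEC hi was at 20.76 CPM in the Psmb11-deficient library number 1, a value set apart from the other 5, of which the nearest was 16.92. The gap was 0.675 of the whole range. This was 1 of 18 sets of 6 libraries checked (9 genes in 2 cell types), and chance alone marks about 1 in 20 such sets. Without this library the genotype difference of Gas1 in mTEC hi was 0.16 in place of 0.32 on the log2 scale, and then rests on 1 deficient library.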

How the results depend on the processing

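Over 21 alternatives the log2 fold changes of the 7 genes lower in mTEC hi, which were chosen on this contrast, were -5.38 to -5.04 for Gas1, -4.56 to -4.24 for Boc, -2.21 to -1.88 for Smo, -1.85 to -1.54 for Gli3, -1.20 to -0.87 for Cdon, -0.98 to -0.64 for Ptch1 and -0.92 to -0.58 for Gli2. The number of members past the threshold and higher was 0, but 1, Hhip, with DESeq2 size factors, with library size alone, with DESeq2 and with RSEM expected counts, and 0 to 1 over the fits that left out a library, 1 only without the mTEC lo library number 3 titled KO. Over all genes, 11035 of 23923, 12907 of 23923, 14955 of 34883 and 9343 of 21757 were called higher in those settings, in that order. Without that mTEC lo library 10936 of 24587 were. The calls of Hhip are a description, since this contrast chose the members. The cause was not tested. With library size alone the all-gene median was 0.37 in place of 0.08, the share of called genes that were higher 67.0% in place of 53.8%, and the number of primary cilium genes called higher 7 in place of 4. DESeq2 gave a median of 0.55 and 63.1% higher over 34883 genes, and no filter 0.78 and 62.0% over 42255.

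Under either replicate block, by title number or by number and genotype, 7 members were lower and 0 higher. Of all 23923 genes tested, 9051 were lower and 10550 higher by title number, and 8980 and 10488 by number and genotype. This contrast chose the members, so nothing is read from their count. For genotype the block called 0 members. Over all genes it called 45 in mTEC lo against 4, and 7 in the interaction against 0. It moved no call of a member. Of the libraries, 4 of 6 in mTEC hi and 3 of 6 in mTEC lo lay closest to their own number.

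Counts over all genes between genotypes in mTEC lo were 1 with the cell type fitted alone, 147 with DESeq2 and 660 with no filter, while 0 members were called in these. Without the deficient mTEC lo library number 1 the counts were 182 higher and 81 lower, and without number 2 they were 94 and 229. Member differences by genotype changed sign in 15 of 153, 17 of 153 and 35 of 144 values. Depth limits Gli1, at 33 to 85 reads a library.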
